A study of Mus musculus with 16 samples.

Results

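Floor plate and notochord genes were followed across the 4 groups of a mouse embryo study of Cecr2. The set held 9 genes (Shh, Foxa1, Foxa2, Tbxt, Noto, Mnx1, Nkx2-2, Nkx6-1 and Nkx2-9), and every probe set annotated to one of them was taken, whatever its value. This gave 9 probe sets of 8 genes, out of 45037 probe sets and 18194 named genes in the table. Shh had 2 probe sets and no probe set was found for Noto. The platform annotation named 8 of the 9, and the probe set of Tbxt was named only in the authors' deposited results table, under its older symbol T. RNA of single whole female embryos of 11 to 14 somites, dissected free of their extraembryonic membranes before the cranial neural tube closed, was hybridised to Affymetrix mouse arrays. The 4 groups, each of 4 embryos, were BALB/cCrl wild type, BALB/cCrl homozygous for the gene trap allele Cecr2Gt45Bic, FVB/N wild type and FVB/N homozygous for the same allele. Cecr2 encodes a bromodomain protein that works with ISWI chromatin remodellers, and mice lacking it are known for failure of cranial neural tube closure. The allele had been backcrossed onto each strain for more than 10 generations. Heterozygous parents gave the BALB/cCrl mutants, whereas homozygous parents gave those on FVB/N, where genotype and cross therefore cannot be told apart. All levels below are log2 values, differences are mutant minus wild type unless stated, and a probe set is called where its limma p-value, adjusted by Benjamini and Hochberg over all 45037, is under 0.05.

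The notochord is the rod of mesoderm beneath the neural tube, and the floor plate is the strip of cells at the ventral midline of the neural tube above it. Both secrete Sonic hedgehog, which sets up the ventral progenitor domains of the spinal cord and hindbrain. The forkhead factors Foxa1 and Foxa2 are expressed in the floor plate, the notochord and the gut endoderm, and Foxa2 is needed for the node and notochord to form. Tbxt (brachyury) and Noto are transcription factors of the notochord and node, and Tbxt is also expressed in the primitive streak and tail bud. Nkx2-2, Nkx2-9 and Nkx6-1 are homeodomain factors of ventral neural progenitors, and Mnx1 is a homeodomain factor of motor neurons that is also expressed in notochord and gut endoderm. In whole embryos, fewer cells of a type and less RNA per cell cannot be told apart.

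Cecr2 itself followed the labels. Its first probe set lay at 7.81 to 8.51 in BALB/cCrl wild types and 5.22 to 6.66 in the mutants, and its differences were -2.39 in BALB/cCrl and -2.96 in FVB/N. It was 5.23-fold and 7.77-fold lower, the second probe set 5.14-fold and 4.01-fold, so the order of the strains differed between the probe sets. Arrays of a group correlated at 0.9946 or more, the first principal component (39.3% of the variance) separated the strains, and the extremes of the second (9.39%) were 2 FVB/N mutants, number 3 at -24.0 and number 4 at -24.7. The Gapdh 3' minus 5' probe difference, a sign of RNA integrity, ran from -0.0951 to -0.0415 in FVB/N wild types and from -0.0422 to 0.0208 in FVB/N mutants. In BALB/cCrl it ran from -0.0402 to 0.00238 in wild types and from 0.00582 to 0.0278 in mutants. It was higher in mutants than wild types of both strains, with overlap in FVB/N at the edge. The same difference for beta-actin did not follow it, with 0.578 to 0.711 in BALB/cCrl wild types and 0.521 to 0.644 in the mutants, and 0.494 to 0.639 against 0.561 to 0.678 in FVB/N. Their part in the results below was not tested.

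In FVB/N mutants, Foxa1, Foxa2 and Mnx1 fell. The 2 forkhead factors each fell 1.48-fold and Mnx1 fell 1.65-fold, and these were the 3 member probe sets called out of 9. Among all probe sets, 0.42% were called lower in this comparison and 0.595% were called in either direction. All 9 member differences were below 0, with a median of -0.42, against 46.4% of all probe sets below 0 and a median over them of 0.0097. At an unadjusted p under 0.05, 6 of the 9 were lower, against 6.23% of all probe sets.

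Foxa2, the forkhead factor at the head of the floor plate and notochord programme, stood at 8.56, 8.47, 8.78 and 8.70 in FVB/N wild types 1 to 4. In FVB/N mutants 1 to 4 it stood at 8.26, 8.11, 8.04 and 7.85. Every mutant lay below every wild type, as held for all 3 called members and for 3.15% of all probe sets. The difference was -0.56 ± 0.0971 (SE; adjusted p = 0.0119, limma). In BALB/cCrl the wild types had 8.63, 8.92, 8.63 and 8.54 and the mutants 8.39, 8.66, 8.55 and 8.51. Those groups overlapped, and the difference of -0.15 (95% interval -0.36 to 0.048) was not called, with an adjusted p of 0.643 by limma. The difference between the 2 trap effects, BALB/cCrl minus FVB/N, was 0.41 (95% interval 0.12 to 0.69). Its limma p was 0.00785 before and 0.389 after adjustment, so a strain difference in the Foxa2 effect was not called.

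Foxa1, the related forkhead factor, stood at 9.04, 9.24, 9.32 and 9.24 in FVB/N wild types and 8.94, 8.55, 8.67 and 8.44 in the mutants. The groups did not overlap, and the difference was -0.56 ± 0.0986 (SE; adjusted p = 0.0137, limma). BALB/cCrl wild types had 9.36, 9.30, 9.04 and 9.28 and mutants 8.90, 9.09, 8.78 and 8.83. Only wild type 3 and mutant 2 overlapped there. The BALB/cCrl difference was -0.35 ± 0.0986 (SE), with a limma p of 0.00215 before and 0.335 after adjustment, and was not called.

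Mnx1 stood at 5.67, 5.96, 5.56 and 6.10 in FVB/N wild types and at 5.48, 4.90, 5.27 and 4.75 in FVB/N mutants. Its BALB/cCrl levels were 6.20, 6.28, 5.82 and 5.99 in wild types and 5.56, 5.53, 5.15 and 5.28 in mutants. In both strains every mutant lay below every wild type. The FVB/N difference was -0.72 ± 0.155 (SE; adjusted p = 0.0438, limma). The BALB/cCrl difference was -0.70 ± 0.155 (SE), with a limma p of 2.5e-04 before and 0.182 after adjustment. Only the FVB/N difference was called, and the interaction of 0.028 (95% interval -0.43 to 0.49) was not. Mnx1 was a dim probe set. In the authors' deposited gcRMA table of the FVB/N pair it lay at 2.41 to 2.82, close to that table's lowest value of 2.13, with a difference of -0.18 (adjusted p = 0.812, limma). In the gcRMA table of the BALB/cCrl pair its difference was -0.36 (adjusted p = 0.715, limma).

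The 3 calls in FVB/N did not hold in every alternative. Without FVB/N wild type 3 or without FVB/N wild type 4 no member was called, and without FVB/N wild type 2 only 1 was. With FVB/N mutants 3 and 4 both left out, Foxa1 and Foxa2 kept differences of -0.47 and -0.44 but had adjusted p-values of 0.190 and 0.196 (limma). In the gcRMA table their differences were -0.66 and -0.68, with adjusted p-values of 0.263 and 0.228. Over 26 alternative fits Foxa1 was called in 21, Foxa2 in 22 and Mnx1 in 15, and all 3 stayed below 0 in each. The authors' deposited table gave linear folds of -1.48 for Foxa1, -1.48 for Foxa2 and -1.65 for Mnx1 in FVB/N, with unadjusted p-values of 0.00375, 0.00233 and 0.0137.

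**Figure D1:**
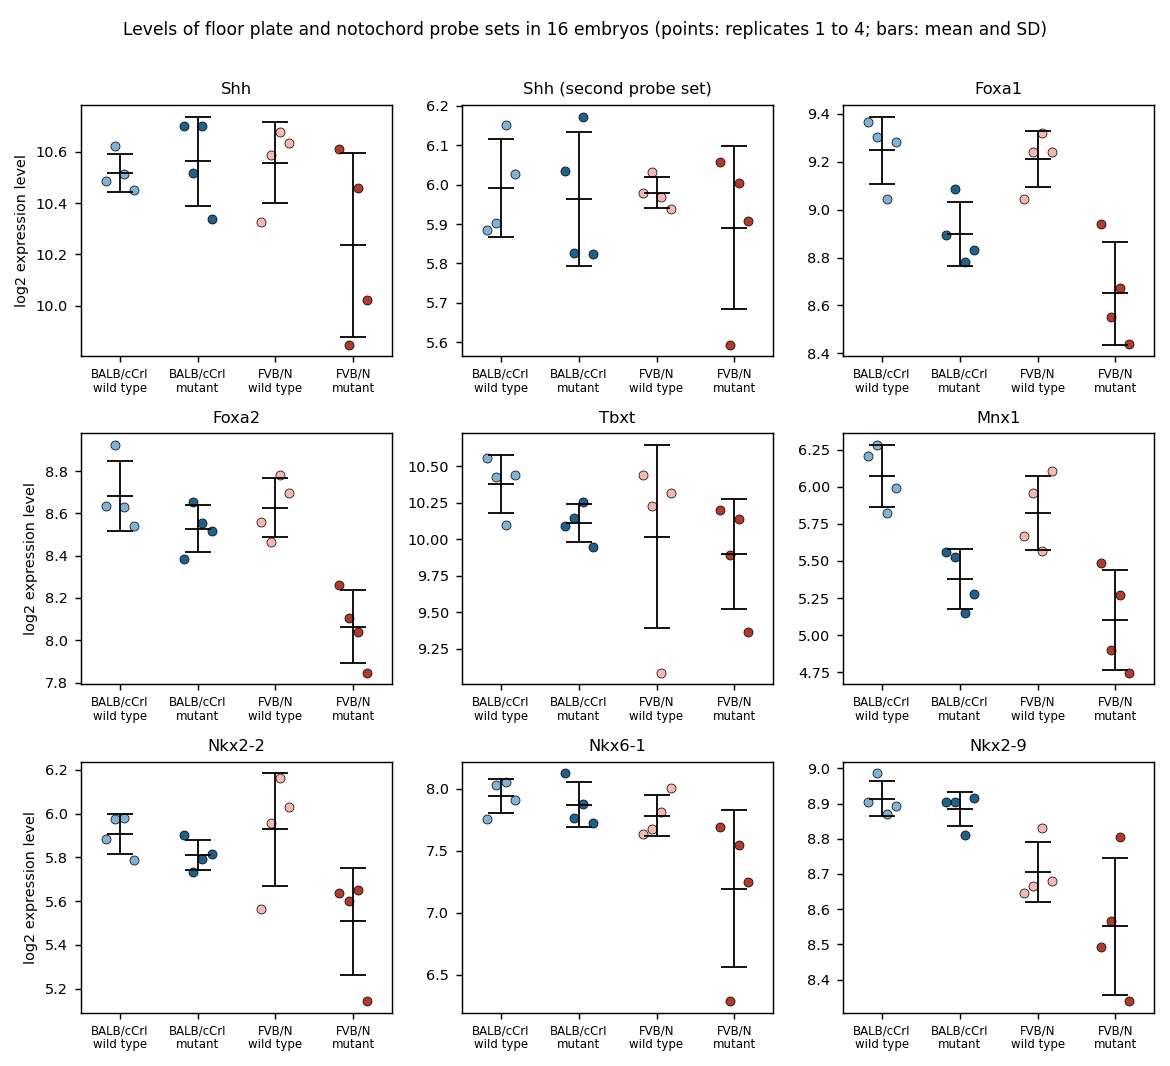
Levels (log2) of the 9 probe sets in 16 embryos, with 1 panel per probe set and 1 point per embryo, and bars for the mean and SD of each group of 4. The axis of each panel has its own range. The FVB/N mutants lie below all FVB/N wild types for Foxa1, Foxa2 and Mnx1, and the BALB/cCrl mutants lie below their wild types for Mnx1.

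The promoters of the 3 genes called in FVB/N are shown because these genes were called lower in the same comparison. Each is given as the 250 bases before and 50 bases after an annotated start in RefSeq (GRCm38.p6). The Foxa1 window is chr12:57546062-57546361, the Foxa2 window is chr2:148046920-148047219 and the Mnx1 window is chr5:29478421-29478720, all on the minus strand. Foxa2 has 3 annotated starts, of which the most upstream is printed. Capitals mark the 1 motif match found.

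Foxa1: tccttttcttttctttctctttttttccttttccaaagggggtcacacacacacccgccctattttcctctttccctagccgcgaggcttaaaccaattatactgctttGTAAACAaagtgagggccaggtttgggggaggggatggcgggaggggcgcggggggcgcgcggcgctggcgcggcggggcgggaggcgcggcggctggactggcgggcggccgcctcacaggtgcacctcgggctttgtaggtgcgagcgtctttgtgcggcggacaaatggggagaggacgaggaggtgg

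Foxa2: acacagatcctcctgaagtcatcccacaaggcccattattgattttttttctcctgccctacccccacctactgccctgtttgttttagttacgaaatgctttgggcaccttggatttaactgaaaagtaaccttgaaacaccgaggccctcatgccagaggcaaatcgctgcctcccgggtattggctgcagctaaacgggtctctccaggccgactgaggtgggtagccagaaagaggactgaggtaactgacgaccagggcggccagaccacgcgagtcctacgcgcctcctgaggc

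Mnx1: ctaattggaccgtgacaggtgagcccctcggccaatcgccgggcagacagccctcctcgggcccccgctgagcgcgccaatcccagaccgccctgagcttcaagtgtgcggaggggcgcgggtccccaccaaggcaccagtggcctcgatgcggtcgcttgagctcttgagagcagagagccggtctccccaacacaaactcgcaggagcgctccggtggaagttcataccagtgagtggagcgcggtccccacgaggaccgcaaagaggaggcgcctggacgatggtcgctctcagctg

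The motifs searched on both strands were a forkhead core (TGTTTAC), a Gli site (GACCACCCA) and a T-box half-site (TCACACCT), chosen with the calls above known. Shh was not in the promoter table. The forkhead core occurred in 1 of the 10 windows of 8 member genes, on the opposite strand of the Foxa1 promoter from base 110 of the window, and in 3.65% of all 32851 windows. The other motifs occurred in no member window, and in 0.253% and 1.28% of all windows. A match of letters is a description and was not tested for binding. The Foxa1 and Mnx1 windows each held 26 CpG dinucleotides and the Foxa2 window 12, against a median of 7 over all windows. On the chromosomes some members are neighbours. Shh and Mnx1 lie on chromosome 5 with 3 coding genes between them, and Foxa2 and Nkx2-2 lie on chromosome 2 with 1 (Pax1) between them.

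Shh, the ligand, was not called in any comparison as fitted. Between mutants of the 2 strains it was called higher in BALB/cCrl in 2 alternatives, without FVB/N mutant 1 (0.45; adjusted p = 0.0203) and with array weights (0.41; adjusted p = 0.0427, limma). Its brighter probe set stood at 10.33, 10.59, 10.68 and 10.64 in FVB/N wild types and at 10.61, 9.85, 10.46 and 10.02 in FVB/N mutants. Mutants 2 and 4 were low and mutants 1 and 3 lay among the wild types. The difference was -0.32 (95% interval -0.59 to -0.056; adjusted p = 0.298, limma), and -0.19 without mutant 2. In BALB/cCrl it was 0.045 (95% interval -0.22 to 0.31), with group means of 10.52 ± 0.0737 in wild types and 10.56 ± 0.174 in mutants (SD, n = 4). The second, dim Shh probe set gave -0.088 in FVB/N and -0.028 in BALB/cCrl, with adjusted p-values of 0.785 and 0.960 by limma.

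Tbxt, the notochord and tail bud factor, was not called for the trap in either strain. Its levels were 10.44, 10.23, 9.08 and 10.32 in FVB/N wild types and 10.20, 9.89, 10.14 and 9.37 in FVB/N mutants. Wild type 3 and mutant 4 were the low embryos. The FVB/N difference was -0.12 (95% interval -0.58 to 0.34) and the BALB/cCrl difference -0.27 (95% interval -0.73 to 0.19), with adjusted p-values of 0.874 and 0.732 by limma. The FVB/N value rested on single embryos, at -0.43 without wild type 3 (adjusted p = 0.287, limma) and 0.059 without mutant 4. It was also above 0, at 0.023, without wild type 1 and, at 0.026, without mutants 3 and 4. Both low embryos also had the lowest summed level of 14 tail bud and presomitic mesoderm genes in their groups, at 11.53 for wild type 3 (others 12.29 to 12.43) and 11.69 for mutant 4 (others 12.22 to 12.27). Wild type 3 was the lowest of the 4 FVB/N wild types for 12 of those 14 genes, a count made after its Tbxt level had been seen. Between wild types, BALB/cCrl minus FVB/N, Tbxt differed by 0.36 (95% interval -0.096 to 0.82; adjusted p = 0.415, limma) and all 14 tail bud genes lay above 0 with a median of 0.29, against 49.1% of all genes above 0. Without wild type 3 the Tbxt difference was 0.051 and 11 of the 14 lay above 0, with a median of 0.060. The 2 low embryos differed otherwise, since Foxa2 was highest of its group in wild type 3 and lowest of its group in mutant 4.

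Among the ventral progenitor factors, Nkx2-2, a factor of the domain next to the floor plate, stood at 5.56, 5.96, 6.16 and 6.03 in FVB/N wild types and 5.64, 5.60, 5.65 and 5.14 in FVB/N mutants. Wild type 1 lay within the range of the mutants. The difference was -0.42 ± 0.122 (SE), with a limma p of 0.00264 before and 0.134 after adjustment, and was called in 1 of 26 alternatives, without wild type 1 (-0.54; adjusted p = 0.0379, limma). Nkx6-1, a factor of motor neuron and more ventral progenitors, stood at 7.64, 7.68, 7.81 and 8.01 in FVB/N wild types and 7.69, 6.29, 7.55 and 7.25 in the mutants. Mutant 2 was far below the others. The difference was -0.59 ± 0.201 (SE; adjusted p = 0.215, limma), and -0.29 without mutant 2 (adjusted p = 0.344, limma). Nkx2-9, another factor of the ventral midline region, gave -0.15 in FVB/N (adjusted p = 0.443, limma). In BALB/cCrl the differences of these 3 genes were between -0.098 and -0.031, and none was called.

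In BALB/cCrl, 0 of the 9 probe sets were called by limma, where 0.02% of all probe sets were. At an unadjusted p under 0.05, 2 of the 9 (Foxa1 and Mnx1) were lower, against 5.04% of all, and 8 of 9 differences were below 0 with a median of -0.098. Mnx1 alone had groups that did not overlap, as did 3.24% of all probe sets in that direction.

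Averaged over both strains, Foxa1, Mnx1 and Foxa2 fell. Foxa1 changed by -0.46 ± 0.0697, Mnx1 by -0.71 ± 0.110 and Foxa2 by -0.36 ± 0.0687 (SE), with limma adjusted p-values of 0.00408, 0.00433 and 0.0220. Of all probe sets 0.304% were called lower in this comparison. All 8 mutants lay below the wild type mean of their own strain for Foxa1, Foxa2, Mnx1 and Nkx2-2, although Nkx2-2 was not called (-0.26; adjusted p = 0.192, limma). Some BALB/cCrl mutants lay only just below, such as mutant 1 in Nkx2-2 (-0.0068) and mutant 2 in Foxa2 (-0.027). How many of all probe sets share this pattern was not counted. Over 24 alternatives Foxa1 and Mnx1 were called in all 24 and Foxa2 in 21. The pair tables of gcRMA give no value for this mean, so the 24 leave out the processing in which the Mnx1 differences were smaller. The alternatives include leaving out both FVB/N mutants 3 and 4, where Foxa2 had an adjusted p of 0.140 (limma). The mean shares its arrays with the single-strain comparisons and is not separate evidence from them.

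**Figure D2:**
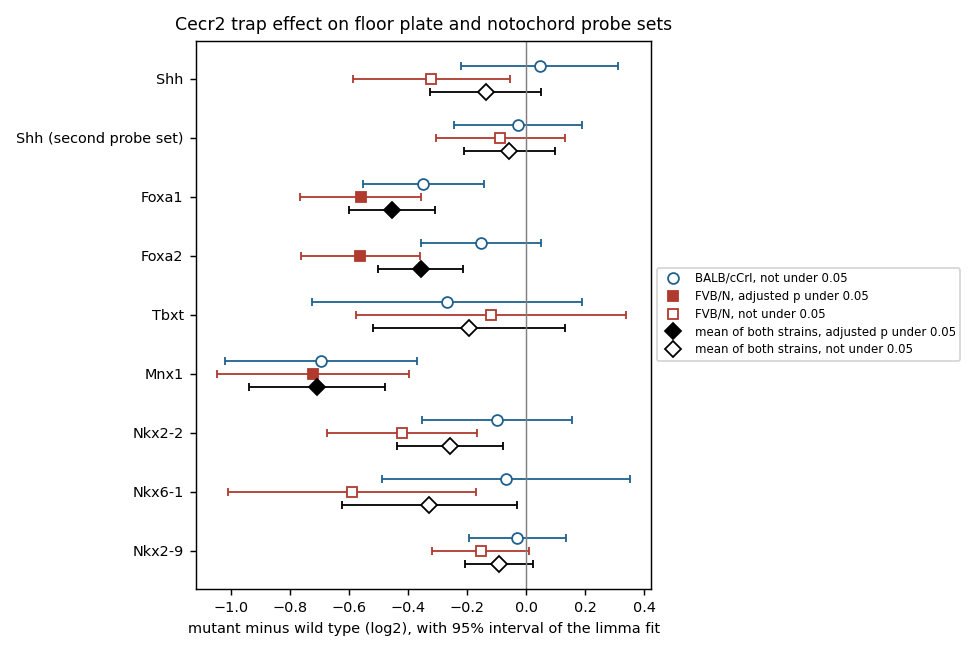
Difference between mutants and wild types (log2) of each member probe set with its 95% interval, in BALB/cCrl, in FVB/N and as the mean of both, with filled symbols for an adjusted p under 0.05. Filled symbols appear for Foxa1, Foxa2 and Mnx1 in FVB/N and in the mean, and none appears in BALB/cCrl.

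**Figure D3:**
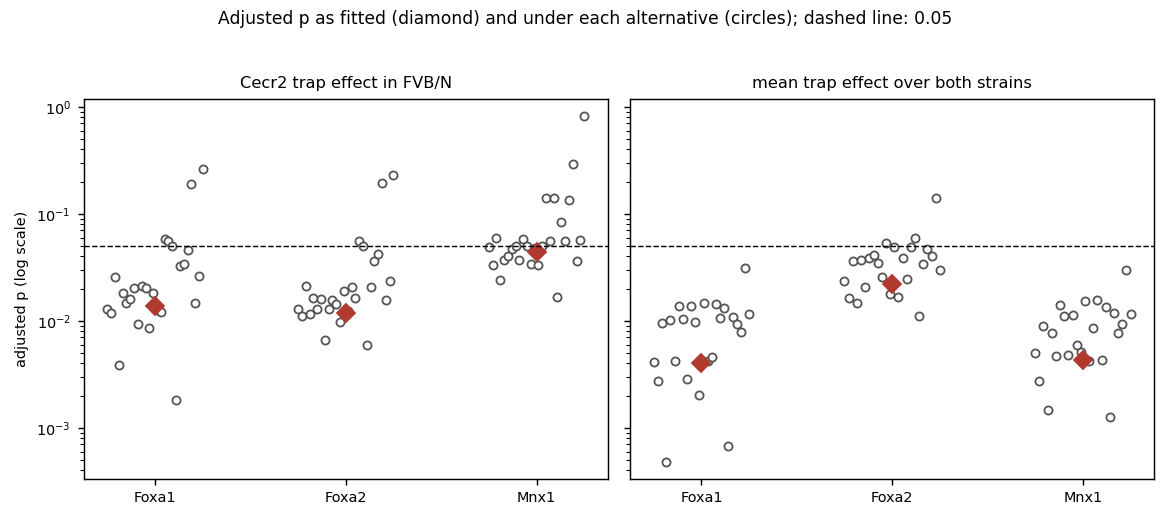
Adjusted p (log axis) of Foxa1, Foxa2 and Mnx1 as fitted (diamonds) and under each alternative (circles), with the FVB/N effect on the left and the mean effect on the right. In FVB/N some circles of each gene lie above 0.05, and in the mean only circles of Foxa2 do.

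The strains were also compared within each genotype, as BALB/cCrl minus FVB/N. Among wild types 0 of 9 probe sets were called by limma, against 6.74% of all, and 1 (Nkx2-9) was higher in BALB/cCrl at an unadjusted p under 0.05, against 8.41% of all. Nkx2-9 stood at 8.87 to 8.99 in BALB/cCrl wild types and 8.65 to 8.83 in FVB/N wild types. Its groups did not overlap, as for 6.75% of all probe sets in that direction, and the difference of 0.21 had an adjusted p of 0.137 (limma). Among mutants Foxa2, Nkx6-1 and Nkx2-9 were higher in BALB/cCrl, and 4.89% of all probe sets were called higher there (10.8% in either direction). With Nkx2-2, 4 of the 9 had groups that did not overlap, as did 5.62% of all in that direction. The differences were 0.46 for Foxa2 (adjusted p = 0.00316), 0.68 for Nkx6-1 (adjusted p = 0.0344) and 0.33 for Nkx2-9 (adjusted p = 0.00782), all by limma. Without FVB/N mutant 2 the Nkx6-1 difference was 0.38, its lowest over 25 alternatives, with an adjusted p of 0.0604 (limma), and it was called in 19 of the 25. Foxa2 lost its call with FVB/N mutants 3 and 4 left out (0.34; adjusted p = 0.0569) and Nkx2-9 with only the arrays of the contrast (adjusted p = 0.0503, limma), and each was called in the other 24. The strain difference in mutants shares the FVB/N mutants with the trap comparison, so these values do not stand apart from it. Mutants of the 2 strains came from different crosses, so strain and cross cannot be told apart there or in the interaction. For the interaction, 0 of 9 were called by limma, against 0.0755% of all, and only Foxa2 had an unadjusted p under 0.05, against 7.92% of all.

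Single embryos varied in several members at once. With each group's mean removed, 31 of the 36 pairs of member probe sets correlated above 0 over the 16 arrays, with a median r of 0.35. Shh and Nkx6-1 had r = 0.83, and r = 0.67 without the 2 arrays farthest in Shh (FVB/N mutants 1 and 2). Foxa1 and Mnx1 had r = 0.75, and 0.59 without the 2 farthest arrays. The points share arrays and overall array quality, the somite number of each embryo was not given, and these r values are a description. FVB/N mutant 2 lay 0.71 below the FVB/N wild type mean in Shh and had the lowest Nkx6-1 of all embryos, while its Tbxt was 9.89, inside the range of its group. FVB/N mutant 4 was the lowest embryo for Foxa1, Foxa2, Mnx1, Nkx2-2 and Nkx2-9.

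**Figure D4:**
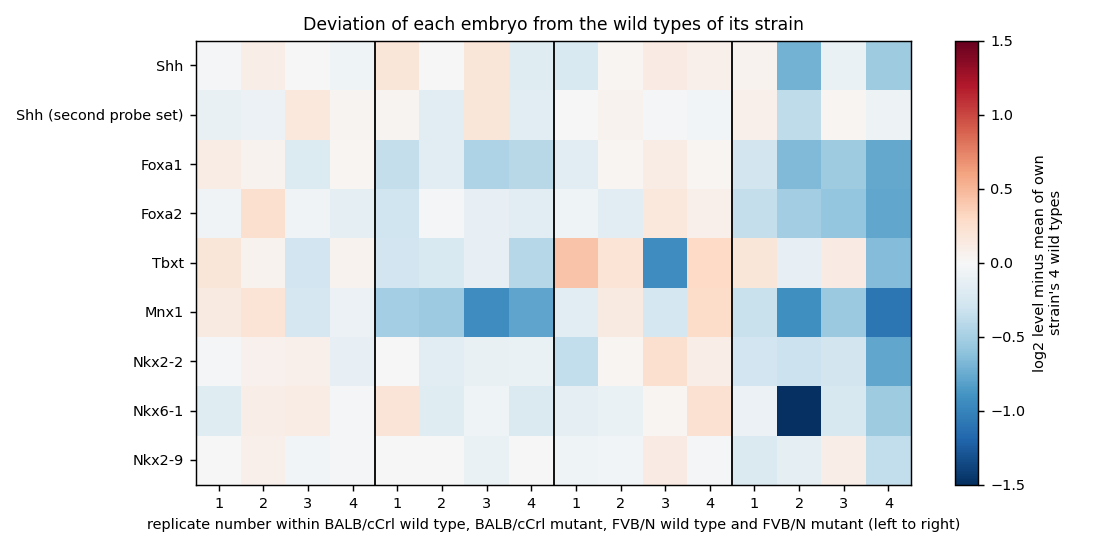
Deviation (log2) of each embryo from the mean of the 4 wild types of its strain, with probe sets in rows and embryos in columns ordered by group, in blue for below and red for above. FVB/N mutants 2 and 4 are blue in most rows, and the Mnx1 and Foxa1 rows are blue in all 8 mutants.

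Outside the members, the probe sets most like Foxa2 after removal of group means, among 26489 candidates, were those of 1110038F14Rik, Tdp2, Ppm1b, Atp8a1 and Cxxc4 (r between 0.87 and 0.89 over 16 arrays). Over the raw values their r ran from 0.092 to 0.76. Those most like Shh were 2 probe sets of Ttc28 and those of Klf13, Zfp362 and Hoxa5 (r between 0.91 and 0.92; raw 0.77 to 0.95). None of these 9 genes was called for the trap effect in either strain.

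Genes of the same pathway and tissues were counted by list. Of 15 measured hedgehog pathway genes (receptors, transducers and Gli factors), 0 were called for the trap in FVB/N by limma, 5 had an unadjusted p under 0.05, all lower, and 13 lay below 0, with a median of -0.13. Among representing probe sets of all genes 0.511% were called there and 0.39% called lower, 6.58% were lower at an unadjusted p under 0.05, and 49.3% lay below 0. Of 9 other floor plate genes 1 was called in FVB/N, Slit2, a secreted axon guidance ligand, lower by 0.35 ± 0.0727 (SE; adjusted p = 0.0368, limma). In that list 7 genes lay below 0 and 2 above, with a median of only -0.041. Some genes of each list were dim, as counted with the Y-linked probe sets below. Of 11 other notochord and node genes 1 was called, Sox5, a factor of notochord and cartilage, lower by 0.39 ± 0.0745 (SE; adjusted p = 0.0212, limma). There 9 genes lay below 0 and 2 above, with a median of -0.12. Slit2 was called in 15 and Sox5 in 20 of 26 alternatives, and leaving out any 1 of FVB/N wild types 2, 3 or 4, or FVB/N mutant 4, ended either call. None of 7 ventral and intermediate progenitor factors was called, although 7 of 7 lay below 0 and 1 had an unadjusted p under 0.05. In BALB/cCrl 0 genes of any list were called by limma, against 0.044% of all genes, and the medians of these 4 lists lay between -0.013 and 0.018.

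In the mean effect, Slit2 was again called (-0.29; adjusted p = 0.0116, limma; called in 23 of 24 alternatives), where 0.451% of all genes were called lower. Its list of other floor plate genes had 5 below 0 and 4 above, with a median of -0.044. In the same comparison 3 genes from the lists of other cells that also express some members fell. They were Sox17, an endoderm factor (-0.36; adjusted p = 0.0279), and Isl1 and Elavl4, from the motor neuron and early neuron list (-0.23 and -0.49; adjusted p = 0.0465 and 0.0378, limma). Of the 9 measured motor neuron and early neuron genes, 4 lay below 0 in this mean and 5 above, with a median of 0.0096. Of 13 gut endoderm genes, 9 lay below 0 and 4 above, with a median of -0.042. Sox17 was called in 17, Elavl4 in 12 and Isl1 in 7 of 24 alternatives. Leaving out FVB/N wild type 2 or 4, BALB/cCrl mutant 3 or FVB/N mutant 3 ended each of these 3 calls. The summed level of 9 measured motor neuron and early neuron genes was 10.63 to 10.65 in FVB/N wild types and 10.31 to 10.50 in FVB/N mutants, and 10.53 to 10.67 against 10.31 to 10.59 in BALB/cCrl. The FVB/N ranges did not overlap. The sum adds linear levels, so bright genes weigh most, and Isl1 was the brightest (mean 9.11). By mean level 5 of the 9, among them Chat (4.52), Slc18a3 (4.65) and Lhx3 (5.58), lay within the wider Y-linked range given below. What the sum tells of motor neurons was not tested. Gene by gene, 4 of the 9 lay below 0 in FVB/N and 5 above, with a median of 0.025. The summed level of 13 gut endoderm genes was 12.40 to 12.46 in FVB/N wild types and 12.12 to 12.50 in FVB/N mutants, and 12.36 to 12.45 against 12.16 to 12.44 in BALB/cCrl. The part of these cells in the Foxa1, Foxa2 and Mnx1 results was not tested. The trap medians of the gut endoderm list were -0.11 in FVB/N and -0.14 in BALB/cCrl, with 7 and 10 of 13 genes below 0. The summed level of 9 visceral endoderm and yolk sac genes ran from 12.74 in FVB/N mutant 3 to 15.36 in BALB/cCrl mutant 2, so markers of the membranes dissected away, some of which the embryo also expresses, were present in every embryo. Of these 9 genes 8 lay below 0 in FVB/N with a median of -0.38, against a members' median of -0.42. By limma 0 were called, with none lower at an unadjusted p under 0.05. Their summed level was low in FVB/N mutant 3 only, at 12.74. FVB/N mutants 1, 2 and 4 stood at 14.80, 14.60 and 15.03, within the FVB/N wild type range of 14.3 to 15.1.

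Of the 87 measured genes of these lists, 4 were called between the wild types of the 2 strains, and 6.9% of all genes were. Kif7, a hedgehog pathway kinesin (0.35), Hes7, an oscillating gene of the presomitic mesoderm (0.65), and Epcam, an epithelial adhesion protein (0.36), were higher in BALB/cCrl, and Sox5 was lower (-0.46), with adjusted p-values of 0.00223, 0.0363, 0.00584 and 0.000355 in that order (limma). Hes7 was called in 16 of 26 alternatives and lost its call without wild type 1, 2 or 4 of BALB/cCrl or 2, 3 or 4 of FVB/N, and the other 3 were called in all 26. Between the mutants 4 of the 87 were called higher in BALB/cCrl, where 4.15% of all genes were. They were Smo, the hedgehog signal transducer (0.19), Kif7 (0.26), Slit2 (0.31) and Ccn2, a secreted matrix protein (0.31). Their limma adjusted p-values were 0.0398, 0.0146, 0.00810 and 0.0278 in that order. Of 25 alternatives Smo was called in 12, Kif7 and Slit2 in 23 each and Ccn2 in 22.

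**Figure D5:**
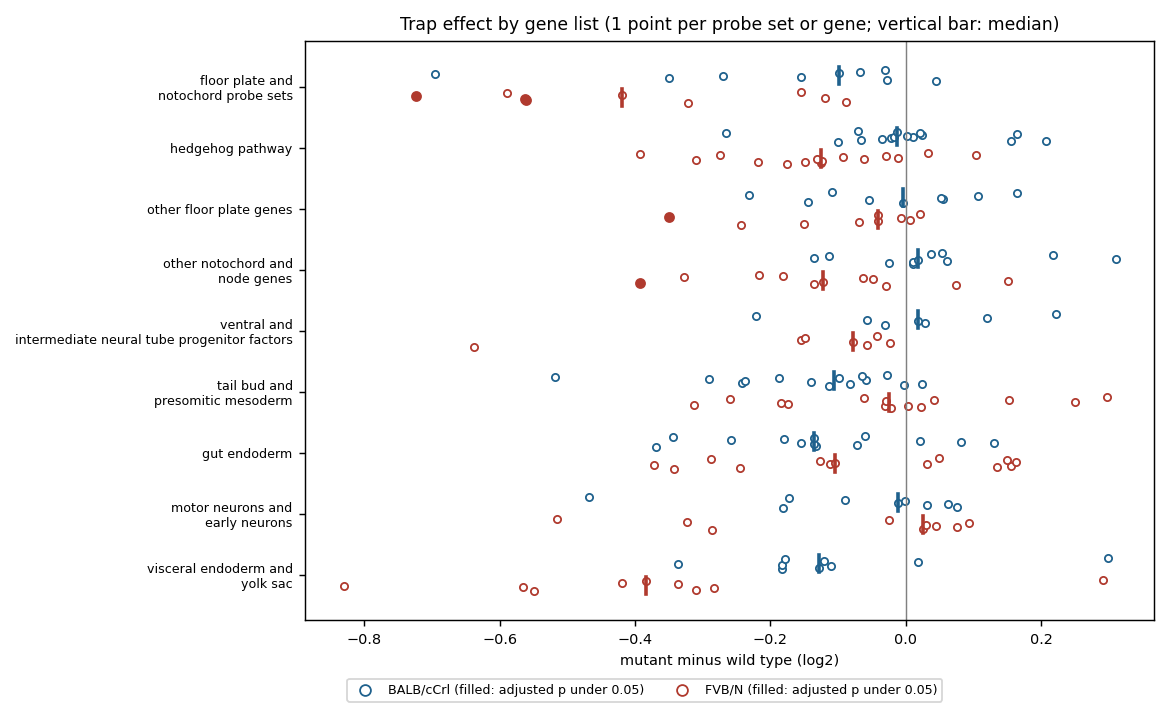
Trap effect (log2) of every measured gene of each list in BALB/cCrl and FVB/N, with a vertical bar at the median and filled points for an adjusted p under 0.05. The members' FVB/N median of -0.42 lies left of their BALB/cCrl median of -0.098. The visceral endoderm FVB/N median is -0.38, and the summed level of that list was low in FVB/N mutant 3 only. The filled points are the 3 members, Slit2 and Sox5, all in FVB/N.

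How far the dim members stood above background depended on the yardstick. Female embryos carry no Y chromosome, and 13 probe sets of 6 Y-linked genes spanned 3.03 to 7.28 on these arrays. By that range 5 member probe sets (Shh, Foxa1, Foxa2, Tbxt and Nkx2-9) lay above it on all arrays, while Mnx1, Nkx2-2 and the second Shh probe set lay wholly within it. The top of the range came from 1 probe set of Sry at 6.80 to 7.28. A narrower set of 9 probe sets of 3 genes, chosen after that range had been seen, spanned 3.03 to 4.53, and all 9 member probe sets lay above it on all arrays. By mean level, the wider range held 3 of 9 other floor plate, 3 of 11 other notochord and 3 of 7 progenitor genes. It also held 2 of 15 hedgehog, 2 of 14 tail bud, 3 of 13 gut, 5 of 9 neuron and 1 of 9 visceral endoderm genes. The narrower range held Ferd3l, Dbx2 and Chat.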

How the data were processed

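Values were log2 expression levels that the authors had normalised over all 16 Affymetrix arrays together. Per the submitters' processing notes RMA and GCRMA were used, with no version and without saying which table each made. The authors also deposited 3 gcRMA tables in log2 units, each made from a single pair of groups and used as an alternative, and a results table with a signed fold change (a score per probe set) and a p-value per comparison. The gcRMA table for the mutant pair was not used here, since its columns did not match these arrays. Arrays carry no read depth, and their number, 4 per group, limits the precision. The labels call the replicates biological, 1 embryo each, but give no litters, so p-values measure the spread between these embryos.

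Of 45037 probe sets, 34945 carried 1 gene symbol in the platform annotation, 932 several and 9160 none. All 16 arrays were fitted in limma 3.58.1 (R 4.3.3) with 1 mean per group, no covariate and an empirical Bayes spread that followed intensity. P-values were two-sided and adjusted over all probe sets. Each listed gene was counted through its brightest probe set over the 16 arrays, and 87 of 93 listed genes were measured, in 8 lists. Members are reported whatever their value. From the lists every called gene is named and the rest are counted. The 5 probe sets most like Foxa2 and Shh were taken by correlation of values minus group means, among probe sets with a mean of at least 5. The fit was tested on simulated data. The members, lists, motifs and tests were chosen with earlier results of these data known. Alternatives were other normalisations, no intensity trend, array weights, a replicate block, a filter on dim probe sets, left-out arrays, fits of 1 pair of groups and the gcRMA tables. Differences are within a probe set. Levels of different probe sets are set side by side in the check against Y-linked probe sets, as a rough yardstick. They are also combined in the summed levels of the lists and compared in the choice of the brightest probe set or gene. Promoters came from RefSeq. Figures were drawn with matplotlib 3.10.9, and the R package data.table (version 1.17.8), pandas 2.3.3 and numpy 2.4.6 handled tables.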

Additional observations from a re-analysis of the deposited data

Results flagged for a closer look

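Single embryos stood apart from the other 3 of their group in 3 of 36 groups of values, where chance gives about 1 in 20. Tbxt stood at 9.084 in FVB/N wild type 3, with the others at 10.228 to 10.443. Nkx2-2 stood at 5.143 in FVB/N mutant 4, with the others at 5.6002 to 5.6489. Nkx2-9 stood at 8.811 in BALB/cCrl mutant 3, with the others at 8.9046 to 8.9148, a gap of under 0.1.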

How the results depend on the processing

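The count of members called for the trap in FVB/N, 3 as fitted, fell to 0 with FVB_MUT 3 and 4 both left out and to 0 in the gcRMA table, and ranged from 0 to 4 when 1 array was left out. The 0 came from leaving out FVB/N wild type 3 or 4, and 1 from wild type 2. Among wild types of the 2 strains, 0 as fitted, the count was 1 with array weights, 1 without FVB/N mutants 3 and 4, and 1 with only the arrays of the contrast, each time Nkx2-9, and 0 whichever array was left out. Between mutants, 3 as fitted, it was 1 with only the arrays of the contrast and 2 to 5 with 1 array left out, the 5 without FVB/N mutant 1. For the mean effect it was 2 to 3. For BALB/cCrl and the interaction it was 0 in every alternative run. The cause of these changes in the counts was not tested. No member that was called changed sign in any alternative. Replicate numbers did not pair the embryos (same-number correlations from -0.145 to 0.169), and a replicate block left all 6 counts of members as they were, with 3 called in FVB/N. The gcRMA tables hold values at a floor with no spread, which limma offset, and Nkx2-2 was constant at 5.0505 in the wild type pair. With the narrower set of Y-linked genes as the yardstick, 9 rather than 5 member probe sets lay above it.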
